A study of Mus musculus with 16 samples.

Results

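Transcripts of 8 chemokine receptor genes, *Cxcr3*, *Cxcr4*, *Cxcr5*, *Cxcr6*, *Ccr2*, *Ccr4*, *Ccr8* and *Ccr9*, were followed in TCF1+CD8+ T cells exposed to prostaglandin E2 (PGE2). The genes were taken by symbol from the table of read counts, where they were 8 of 54532 genes. The rule used the symbols and no level or test, but the list was drawn up with earlier results of these data known. They are handled under the heading of inflammatory receptors, although *Cxcr4*, *Cxcr5* and *Ccr9* are commonly counted among the homeostatic ones. The RNA-seq data held 16 samples, 4 in each of 4 groups. Naive CD8+ T cells from the spleens of C57BL/6J mice had been activated repeatedly in culture for 4 days with IL-2 and anti-CD3/CD28 beads, a model of antigen-experienced cells made in vitro that keep TCF1, the factor of stem-like T cells. Cells of the PGE2 groups were given 100 ng/ml PGE2 for 1 h, and untreated cells spent that hour without it. All 4 groups then received 85 U/ml IL-2 for 4 h, either alone (unstimulated) or with anti-CD3/CD28 beads at 1 bead per cell (stimulated). The control groups therefore carried the earlier activation and IL-2 as well. The labels do not say whether the replicates of a group came from separate mice or cultures, so p-values measure the spread between these samples, which may be technical.

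Chemokine receptors span the membrane with 7 helices and couple to inhibitory G proteins, so that a cell moves along a gradient of the ligand. CXCR3 binds CXCL9, CXCL10 and CXCL11 and brings effector T cells to inflamed tissue, CXCR6 binds CXCL16, which dendritic cells present, and CCR2 binds CCL2 and its relatives. CCR4 binds CCL17 and CCL22, CCR8 binds CCL1 and CCL8, and both are best known from regulatory and helper T cells and from T cells of the skin. CXCR4 holds cells where CXCL12 is made, as in bone marrow, CXCR5 leads cells to CXCL13 in B cell follicles, and CCR9 leads T cells to CCL25 in the small intestine. PGE2 acts on T cells through receptors that raise cAMP, whereas anti-CD3/CD28 beads engage the T cell receptor and its co-stimulatory partner CD28, which activate NFAT and AP-1.

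Of the 8 genes, 6 lie on chromosome 9 (GRCm38, coordinates of GENCODE M21). *Cxcr6* (chr9:123806475-123811760, plus strand) and *Ccr9* (chr9:123678439-123784330, plus strand) are 22145 bases apart, and *Ccr2* (chr9:124101950-124113557, plus strand) follows 290190 bases after *Cxcr6*. *Ccr8* (chr9:120092114-120094906, plus strand), *Ccr4* (chr9:114490316-114504916, minus strand) and *Cxcr5* (chr9:44511787-44561877, minus strand) lie farther away on the same chromosome. *Cxcr4* is on chromosome 1 (chr1:128588199-128592293, minus strand) and *Cxcr3* on the X chromosome (chrX:101731535-101734269, minus strand). The coding sequence takes 1 or 2 exons in each of the 8. *Cxcr6* lies inside *Fyco1* on the opposite strand and shares 0 exon bases with it. *Cxcr5* shares 3.30% of its exon bases with *Bcl9l* (19.4 to 69.9 CPM, read counts scaled to library size, in these samples) on the opposite strand, and since the use of strand in counting is not stated, reads from that stretch cannot be assigned. *Ccr9* shares 18.8% of its exon bases with *AC165425.1* on the opposite strand, which reached at most 0.0333 CPM, and 2.62% with *Gm17200* on its own strand, which reached at most 0.204 CPM.

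The sequences just upstream of the start sites are shown for 5 of the genes, because they belong to receptors whose calls by PGE2 or stimulation are given below and lie mostly outside exons, unlike that of *Ccr2*, and because they hold or lack motifs tied to the 2 signals applied. The sequences run 5′ to 3′ on the gene's strand, begin 250 bases before the RefSeq start site (GRCm38.p6) and stop where an annotated exon of the gene begins, which is at the start site for *Cxcr4* and 2, 18, 19 and 122 bases before it for *Cxcr6*, *Ccr4*, *Ccr8* and *Cxcr3*. Capitals mark a CRE half-site (TGACG, the letters bound by the cAMP-responsive factor CREB), an AP-1 site (TGANTCA) or an NFAT core (GGAAA, which reads TTTCC where it lies on the other strand), all searched on both strands. The stretches are chr1:128592300-128592549 for *Cxcr4*, chrX:101734270-101734397 for *Cxcr3*, chr9:120091883-120092113 for *Ccr8*, chr9:114496563-114496794 for *Ccr4* and chr9:123806227-123806474 for *Cxcr6*.
Cxcr4: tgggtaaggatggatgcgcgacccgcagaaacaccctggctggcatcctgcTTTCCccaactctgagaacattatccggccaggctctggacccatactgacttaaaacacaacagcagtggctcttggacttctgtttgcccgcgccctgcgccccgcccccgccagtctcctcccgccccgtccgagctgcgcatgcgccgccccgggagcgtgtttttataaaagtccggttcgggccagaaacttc
Cxcr3: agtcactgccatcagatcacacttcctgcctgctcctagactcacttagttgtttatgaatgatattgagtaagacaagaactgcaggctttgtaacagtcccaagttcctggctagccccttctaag
Ccr8: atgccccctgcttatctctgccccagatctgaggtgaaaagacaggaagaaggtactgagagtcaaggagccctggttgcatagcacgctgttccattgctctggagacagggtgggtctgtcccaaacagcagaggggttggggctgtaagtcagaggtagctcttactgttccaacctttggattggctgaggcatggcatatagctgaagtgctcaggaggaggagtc
Ccr4: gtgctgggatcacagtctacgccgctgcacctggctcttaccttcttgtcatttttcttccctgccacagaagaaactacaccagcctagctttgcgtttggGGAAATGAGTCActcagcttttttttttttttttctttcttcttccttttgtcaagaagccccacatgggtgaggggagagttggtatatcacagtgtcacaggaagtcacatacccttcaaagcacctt
Cxcr6: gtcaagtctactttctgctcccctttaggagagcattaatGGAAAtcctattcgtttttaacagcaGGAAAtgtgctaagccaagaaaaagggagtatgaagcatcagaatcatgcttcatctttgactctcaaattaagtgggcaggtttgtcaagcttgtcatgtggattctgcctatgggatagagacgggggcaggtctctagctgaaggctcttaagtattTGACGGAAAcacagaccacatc

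Of the 8 genes, 7 had a promoter entry. In the 250 bases before the start, the CRE half-site was present in 1 of 7 (*Cxcr6*), against 17.8% of 32851 RefSeq promoters. In *Cxcr6* this half-site overlaps an NFAT core by its last base (position -24 from the start site, and -20 for the core). The AP-1 site was present in 1 of 7 (*Ccr4*, position -143), against 6.75% of all promoters. In *Ccr4* the NFAT core at position -148 runs directly into the AP-1 site, and this joined motif, chosen after the promoter was seen, occurs in 13 of 32851 promoters (0.0396%). The NFAT core alone was present in 4 of 7 promoters (*Cxcr4*, *Ccr4*, *Cxcr6* and *Ccr2*) and in 55.6% of all. CACCC, the core of KLF sites, was found in 4 of 7 and 52.0%, CAAAG, the core of TCF sites, in 6 of 7 and 48.6%, and CANNTG, the E-box, in 5 of 7 and 66.2%. These are matches of letters and not binding sites.

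The samples held 22678254 to 42950763 counted reads, and replicates differed well beyond counting noise, with chi-square values of 8.46 to 56.8 per degree of freedom. Markers of CD8+ T cells summed to 2454 to 4460 CPM in every sample. The TCF1 gene *Tcf7* stood at 913 to 1479 CPM in unstimulated untreated cells and at 289 to 328 CPM in stimulated untreated cells. Markers of other cells were low. The 6 B cell genes summed to 4.47 to 21.9 CPM, the 6 myeloid genes to 3.04 to 6.57 CPM, the 4 erythroid genes to at most 0.821 CPM and the 4 genes of CD4+ T cells to at most 40.6 CPM, of which *Cd4* itself reached at most 1.87 CPM. The 4 genes of NK cells summed to 5.91 to 178 CPM, nearly all of it *Eomes*, which CD8+ T cells also make, while *Ncr1* was at 0 in all samples.

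In unstimulated untreated cells *Cxcr4* was the most abundant of the 8 transcripts. Compared per gene length in the deposited FPKM (fragments per kilobase of transcript, scaled to sequencing depth), it stood at 60.1 ± 5.17 FPKM (SD, n = 4) and above *Cxcr3* in every sample. *Cxcr3* (34.4 ± 7.77 FPKM) and *Cxcr6* (27.0 ± 2.69 FPKM) followed, and their ranges overlapped. *Ccr4* was at 4.14 ± 1.36 FPKM, below both of these in every sample. *Ccr2* (1.09 ± 0.288 FPKM) and *Ccr8* (0.958 ± 0.352 FPKM) overlapped each other, *Cxcr5* stood at 0.487 ± 0.135 FPKM, and *Ccr9* was lowest at 0.0354 ± 0.0111 FPKM. Among the 24444 genes with a value above 0 in this group, *Cxcr4* was higher than 96.7% and *Ccr9* higher than 22.5%. In stimulated untreated cells the upper 5 formed a chain of overlapping ranges, from *Cxcr6* (22.6 ± 2.30 FPKM) and *Cxcr4* (21.9 ± 7.25 FPKM) over *Cxcr3* (13.9 ± 3.03 FPKM) and *Ccr4* (9.35 ± 1.98 FPKM) to *Ccr8* (7.06 ± 0.769 FPKM). With PGE2 and stimulation, *Cxcr4* was at 42.1 ± 16.1 FPKM, *Cxcr6* at 25.4 ± 0.954 FPKM, and *Cxcr3* (9.95 ± 1.18 FPKM), *Ccr8* (9.82 ± 1.23 FPKM) and *Ccr4* (8.16 ± 1.52 FPKM) followed with overlapping ranges.

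**Figure D1:**
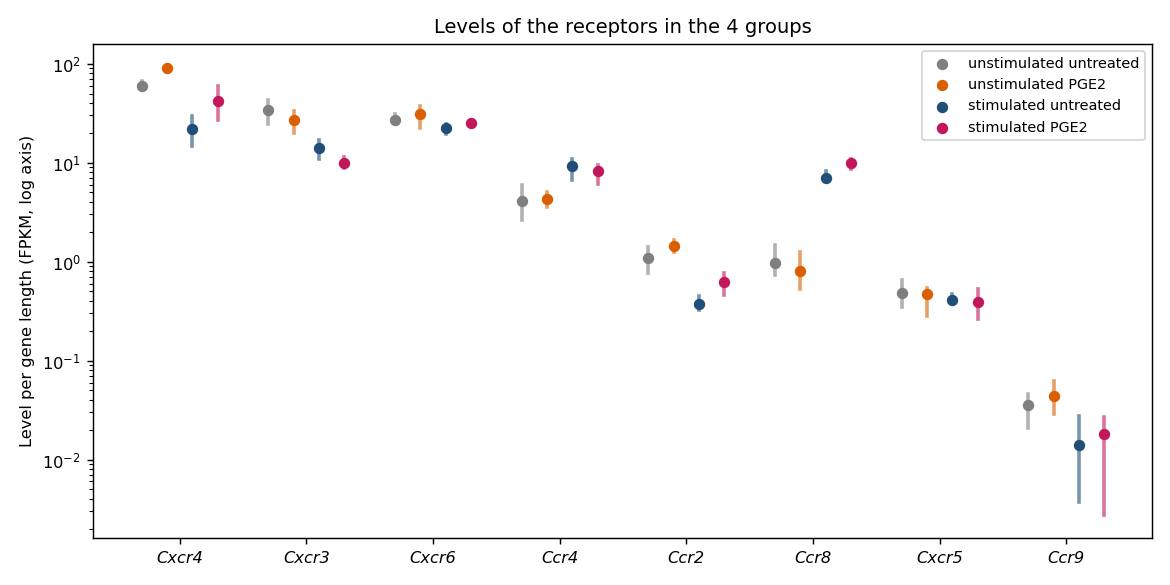
Level per gene length (FPKM, log axis) of the 8 receptor genes in the 4 groups, with points for the mean of 4 samples and bars from the lowest to the highest sample. *Cxcr4* is the highest in both unstimulated groups, *Ccr8* stands at 0.958 FPKM in unstimulated untreated cells and 7.06 FPKM in stimulated untreated cells, and *Ccr9* is the lowest of the 8 in all groups.

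The 8 transcripts together amounted to 128 ± 3.80 FPKM in unstimulated untreated cells, 155 ± 7.18 FPKM in unstimulated cells with PGE2, 75.6 ± 4.85 FPKM in stimulated untreated cells and 96.5 ± 12.6 FPKM in stimulated cells with PGE2 (SD, n = 4 each). *Cxcr4* made up 47.0% of this sum in unstimulated untreated cells and 58.0% with PGE2, and 28.6% in stimulated untreated cells and 42.6% with PGE2. *Ccr8* and *Ccr4* together were a small part in unstimulated untreated cells (0.752% and 3.24%) and a larger one in stimulated untreated cells (9.33% and 12.3%). These shares describe mean levels and were not tested.

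**Figure D2:**
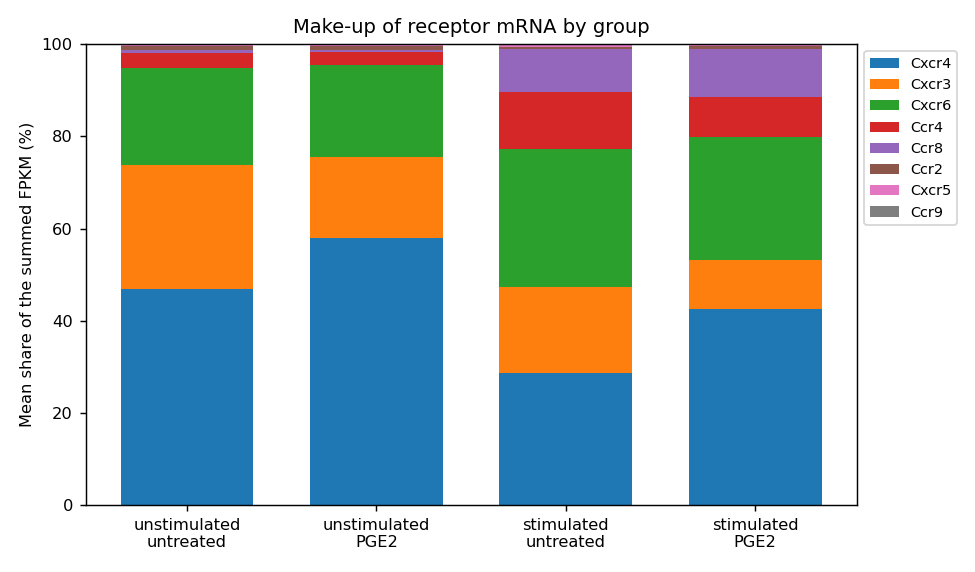
Mean share of each receptor gene in the summed FPKM of the 8 genes (%, y axis) in the 4 groups, with 4 samples each. *Cxcr4* fills 47.0% of the bar of unstimulated untreated cells and 28.6% of that of stimulated untreated cells, where *Ccr4* and *Ccr8* take 12.3% and 9.33%.

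The first comparison asked what PGE2 alone does to these receptors in cells that had IL-2 but no beads. *Cxcr4* rose by PGE2 and was the only one of the 8 that passed the test in the fit of these 8 samples. It stood at 102, 111, 117 and 127 CPM in the untreated samples and at 156, 169, 171 and 178 CPM in the PGE2 samples. Each PGE2 sample was above every untreated sample, and the means of 114 ± 10.2 and 168 ± 9.25 CPM differed by 0.58 on the log2 scale (SE 0.0779, adjusted p = 0.000261), or 1.49-fold. In samples of bulk RNA, a change in transcripts per cell and a change in the number of cells that express the gene cannot be told apart. All 8 receptor genes passed the filter on low counts, and 1 of 8 was called, while 28.4% of the 14505 genes tested were called (adjusted p below 0.05), 12.9% as higher. With a fold change of at least 2 as a further condition (differentially expressed genes, DEGs), 0 of 8 were called by edgeR, DESeq2 or limma, against 3.38% of all genes, and 1 of 8 had groups that did not overlap, against 28.9%. In a fit of all 16 samples, which share 1 estimate of the spread, the *Cxcr4* difference was 0.56 with an adjusted p of 0.0933. The NK cell list, nearly all *Eomes*, summed to 12.7 to 24.4 CPM without and 5.91 to 11.8 CPM with PGE2, and its part in the receptor values was not tested.

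Of the receptors for inflammatory ligands, *Cxcr3* stood at 44.8, 59.5, 68.2 and 77.6 CPM without and at 36.4, 44.1, 55.3 and 59.4 CPM with PGE2. These ranges overlapped, and the difference of -0.34 (SE 0.169) had an adjusted p of 0.164. *Ccr2* stood at 5.45, 6.76, 8.95 and 9.86 CPM without and at 8.91, 9.15, 10.8 and 11.6 CPM with PGE2, also with overlap (0.41, SE 0.173, adjusted p = 0.106). Both had a steady direction between samples of the same replicate number, whose deviations went together. The ratio of PGE2 to untreated was 0.741 to 0.812 for *Cxcr3* and 1.17 to 1.63 for *Ccr2*, below 1 in 4 of 4 and above 1 in 4 of 4 pairs. Once replicate numbers entered the fit as blocks, *Cxcr3* (-0.33, SE 0.0416, adjusted p = 4.73e-06) and *Ccr2* (0.43, SE 0.0939, adjusted p = 0.00127) passed beside *Cxcr4*, so that 3 of 8 were called, against 47.8% of all genes in that fit.

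The other 5 receptors did not pass in either fit. *Cxcr6* differed by 0.20 (SE 0.140, adjusted p = 0.334), from 54.9 ± 5.36 to 61.8 ± 12.5 CPM. *Ccr4* was at 13.5 ± 4.48 and 13.9 ± 1.99 CPM, a difference of 0.06 (SE 0.207). *Cxcr5*, with 39 to 68 reads a sample, differed by -0.05 (SE 0.261), *Ccr8*, with 23 to 61 reads, by -0.26 (SE 0.333), and *Ccr9*, with 8 to 26 reads, by 0.34 (SE 0.351). Leaving out 1 library brought in a second call in 3 cases: *Ccr2* without untreated replicate 2 (0.56, adjusted p = 0.0441), *Cxcr3* without untreated replicate 4 (-0.47, adjusted p = 0.0369) and *Cxcr6* without PGE2 replicate 1 (0.33, adjusted p = 0.0196). The directions of *Cxcr5*, *Ccr4* and *Ccr8* each turned when 1 library was left out, with ranges of -0.18 to 0.13, -0.11 to 0.27 and -0.60 to 0.04.

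**Figure D3:**
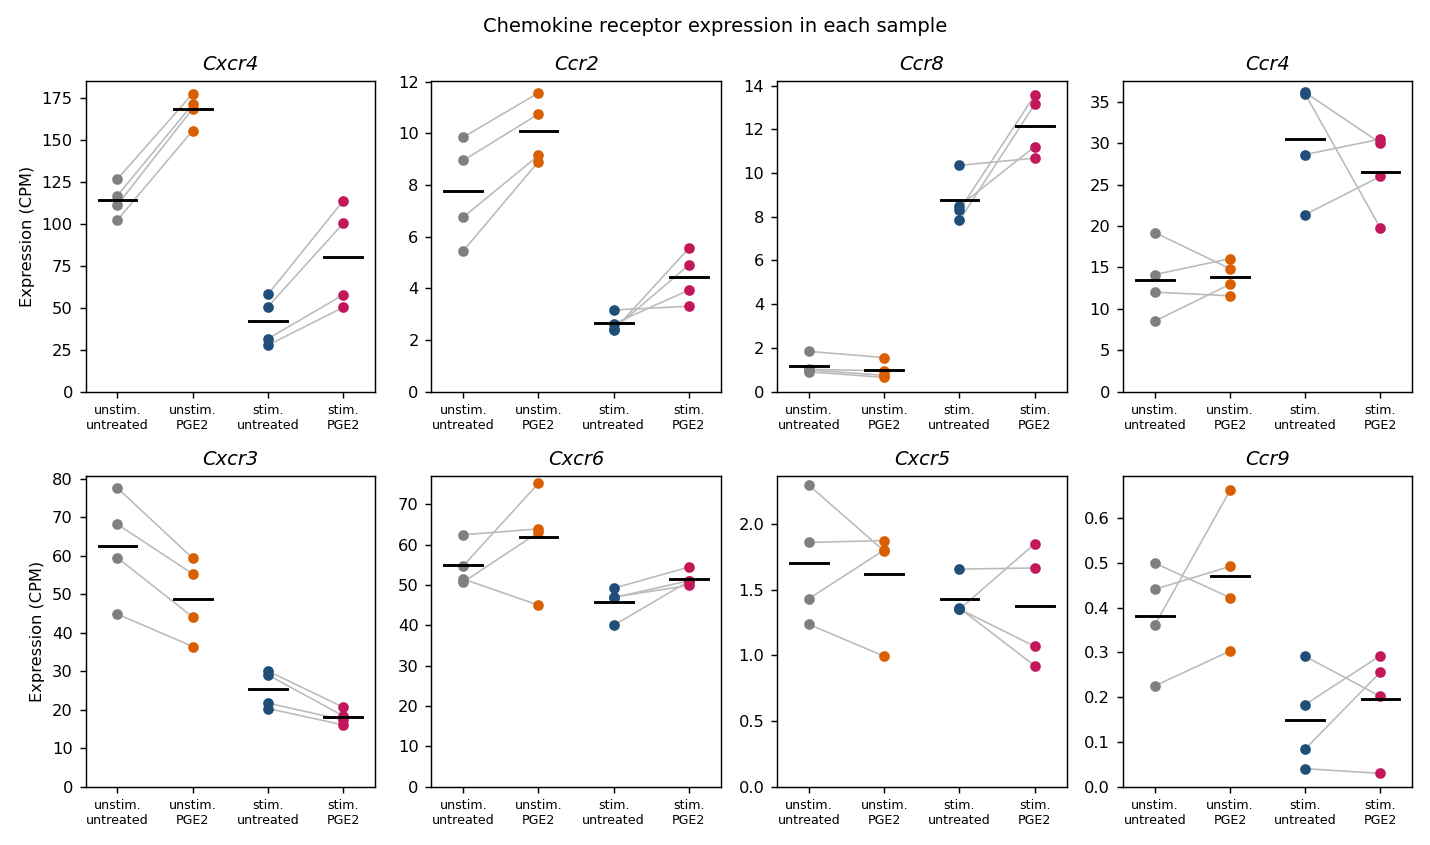
Expression (CPM, linear y axes that start at 0) of each receptor gene in every sample of the 4 groups, with thin lines joining untreated and PGE2 samples of the same replicate number and black bars for the group mean (n = 4). The 4 unstimulated PGE2 samples of *Cxcr4* lie at 156 to 178 CPM, above the 102 to 127 CPM of the untreated ones, and *Ccr8* lies at 0.647 to 1.84 CPM without beads and at 7.83 to 13.6 CPM with them.

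In stimulated cells, where PGE2 exposure was followed by beads and IL-2, *Ccr2* and *Ccr8* rose with PGE2. *Ccr2* stood at 2.37, 2.42, 2.62 and 3.16 CPM in untreated samples and at 3.31, 3.93, 4.90 and 5.55 CPM in PGE2 samples (mean 2.64 ± 0.361 and 4.42 ± 0.999 CPM), and the groups did not overlap. The difference was 0.75 on the log2 scale (SE 0.190, adjusted p = 0.0360), or 1.68-fold, on 56 to 165 reads a sample. *Ccr8* stood at 7.83, 8.30, 8.48 and 10.3 CPM without and at 10.7, 11.2, 13.1 and 13.6 CPM with PGE2 (mean 8.74 ± 1.11 and 12.1 ± 1.42 CPM), again without overlap. It differed by 0.48 (SE 0.128, adjusted p = 0.0406), or 1.40-fold. *Ccr9* did not pass the filter, and of the 7 receptors tested 2 were called, both higher, against 9.84% of 13922 genes in both directions and 6.04% as higher. Of the 7, 0 were DEGs by edgeR, DESeq2 or limma, against 1.75% of all genes, and 3 had groups without overlap, all higher, against 17.9% in both directions and 9.58% as higher. The third of these was *Cxcr6*, at 40.0, 46.9, 47.0 and 49.2 CPM without and 49.9, 51.0, 51.1 and 54.4 CPM with PGE2, a difference of 0.18 (SE 0.0751, adjusted p = 0.159). The CD8+ T cell list summed to 2756 to 2926 CPM without and 2454 to 2657 CPM with PGE2, lower and without overlap. The NK cell list, nearly all *Eomes*, summed to 112 to 178 and 37.3 to 128 CPM. Its ranges overlapped, as did those of the B cell, myeloid, erythroid and CD4+ T cell lists. What part these lists had in the receptor values was not tested.

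*Cxcr4* had the largest difference among the 7 but also the widest spread. It stood at 27.6, 31.5, 50.6 and 58.0 CPM in untreated samples and at 50.2, 57.7, 100.3 and 113.8 CPM in PGE2 samples (mean 41.9 ± 14.7 and 80.5 ± 31.3 CPM). The groups overlapped, and the difference of 0.95 (SE 0.307), or 1.93-fold, had an adjusted p of 0.0805. The spread followed the replicate number: in all 4 groups replicate 1 was the lowest and replicate 4 the highest for *Cxcr4*. Within replicate numbers the ratio of PGE2 to untreated was 1.82, 1.83, 1.98 and 1.96 for replicates 1 to 4. *Cxcr3*, for which replicate 1 was the highest and replicate 4 the lowest in all 4 groups, stood at 20.3, 21.7, 29.1 and 30.1 CPM without and 16.1, 17.4, 18.4 and 20.7 CPM with PGE2. Its difference was -0.47 (SE 0.138, adjusted p = 0.0581), and its ratio within replicate numbers was 0.634 to 0.799, below 1 in 4 of 4 pairs. With the replicate block, *Cxcr4* (0.93, SE 0.0434, adjusted p = 2.68e-07), *Cxcr3* (-0.46, SE 0.0689, adjusted p = 0.000506) and *Cxcr6* (0.18, SE 0.0521, adjusted p = 0.0186) passed beside *Ccr2* (adjusted p = 0.00831) and *Ccr8* (adjusted p = 0.00662), 5 of 7 receptors, against 39.8% of all genes in that fit.

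In the fit without the block, the calls for *Ccr2* and *Ccr8* each stayed in only 2 of 8 fits with 1 library left out. Calls over all genes also moved in these fits, from 630 to 1854, against 1370 with all 8 libraries. *Ccr2* no longer passed without untreated replicate 1 (adjusted p = 0.0836), 2 (0.0559), 3 (0.0915) or 4 (0.0699), or without PGE2 replicate 3 (0.109) or 4 (0.0910), and *Ccr8* no longer passed without untreated replicate 1 (0.0871), 2 (0.119) or 3 (0.0964), or without PGE2 replicate 1 (0.0510), 2 (0.0994) or 3 (0.0769). Over the 8 libraries left out in turn, the difference lay between 0.63 and 0.86 for *Ccr2* and between 0.43 and 0.57 for *Ccr8*. With limma on log2(FPKM + 1) *Ccr2* had an adjusted p of 0.0577, and in a fit of all 16 samples *Ccr8* had one of 0.126 while *Cxcr4* passed (adjusted p = 0.0137). With DESeq2 and all 8 libraries *Cxcr3* passed (-0.49, adjusted p = 0.0208). With edgeR and no filter, *Cxcr3* (-0.48, adjusted p = 0.0415) and *Cxcr4* (0.95, adjusted p = 0.0247) both passed. Without PGE2 replicate 1, *Cxcr4* passed and reached a fold change above 2 (1.13, adjusted p = 0.0270), and *Cxcr3* passed (-0.54, adjusted p = 0.0450), as it did without untreated replicate 4 (-0.56, adjusted p = 0.0302). *Cxcr5* (-0.03, SE 0.250) and *Ccr4* (-0.19, SE 0.187) did not pass in either fit. Both had 2 pairs above and 2 pairs below 1, with ratios of 0.678 to 1.37 for *Cxcr5* and 0.549 to 1.22 for *Ccr4*. *Ccr9* was read 1 to 11 times a sample, too few for a comparison at this depth.

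**Figure D4:**
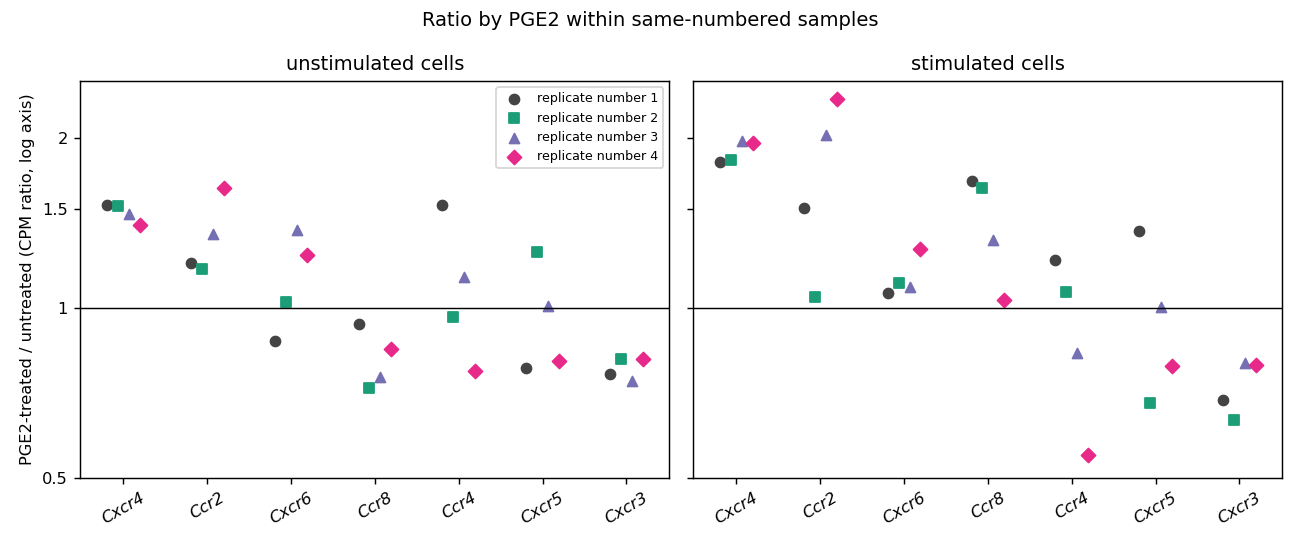
Ratio of PGE2-treated to untreated expression (CPM, log axis) between samples of the same replicate number, for 7 receptor genes in unstimulated (left) and stimulated cells (right), with 1 symbol per replicate number. *Cxcr4* lies above 1 and *Cxcr3* below 1 in 4 of 4 pairs on both sides, and *Ccr8* lies below 1 in 4 of 4 pairs without beads and above 1 in 4 of 4 pairs with them.

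Whether the response to PGE2 itself differed between stimulated and unstimulated cells was tested as an interaction over all 16 samples. Of the 8 receptors 0 passed by edgeR, against 0.749% of 15096 genes, and 0 passed by DESeq2 or by limma on either FPKM scale. At an unadjusted p below 0.05 there was 1 of 8, against 9.37% of all genes. This was *Ccr8*, for which the PGE2 difference was 0.76 larger with beads than without (SE 0.337, adjusted p = 0.483). The corresponding values were 0.39 (SE 0.331) for *Cxcr4*, 0.36 (SE 0.269) for *Ccr2*, -0.13 (SE 0.246) for *Cxcr3* and -0.23 (SE 0.296) for *Ccr4*. A difference between the 2 settings was therefore not detectable for any of the 8 at this spread, which does not show that they responded alike.

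What 4 h of beads do to the receptors was compared first in cells without PGE2, where *Ccr8* and *Ccr4* rose and *Cxcr3*, *Cxcr4*, *Ccr2* and *Cxcr6* fell. *Ccr8* stood at 0.899, 0.986, 1.01 and 1.84 CPM without beads and at 7.83, 8.30, 8.48 and 10.3 CPM with them, a 7.21-fold rise (log2 2.85, SE 0.214, adjusted p = 1.88e-07). *Ccr4* stood at 8.51, 12.0, 14.1 and 19.2 CPM and at 21.4, 28.6, 35.9 and 36.1 CPM, a 2.22-fold rise (1.15, SE 0.216, adjusted p = 0.000432). In each of these receptors every stimulated sample was above every unstimulated one. *Cd4* and *Foxp3*, of the cells in which CCR4 and CCR8 are best known, had these levels: *Cd4* reached at most 1.13 CPM in unstimulated and 1.21 CPM in stimulated untreated samples, and *Foxp3* stood at 3.86 to 8.73 and 3.09 to 6.54 CPM. The whole list of 4 CD4+ T cell genes summed to 27.4 to 34.9 CPM in unstimulated and 19.7 to 24.8 CPM in stimulated untreated samples, lower with beads and without overlap. Its other members went opposite ways. *Zbtb7b* stood at 21.4 to 29.4 and 10.3 to 17.6 CPM, lower with beads, and *Cd40lg* at 0.221 to 0.507 and 1.99 to 4.55 CPM, higher with beads. The B cell list summed to 12.2 to 21.9 and 4.92 to 12.4 CPM in these groups, the NK cell list, through *Eomes*, to 12.7 to 24.4 and 112 to 178 CPM, and the CD8+ T cell list, which holds *Tcf7*, to 3476 to 4460 and 2756 to 2926 CPM. The part of these lists in the receptor values was not tested.

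*Ccr2* fell 2.94-fold (-1.56, SE 0.198, adjusted p = 1.66e-05) to 2.64 ± 0.361 CPM, *Cxcr4* fell 2.78-fold (-1.47, SE 0.188, adjusted p = 1.68e-05) to 41.9 ± 14.7 CPM and *Cxcr3* fell 2.48-fold (-1.31, SE 0.171, adjusted p = 2.09e-05) to 25.3 ± 4.98 CPM. In all of these the highest stimulated sample lay under the lowest unstimulated one. *Cxcr6* had the smallest fold among the 4 called as lower, from 50.7, 51.5, 54.8 and 62.5 CPM to 40.0, 46.9, 47.0 and 49.2 CPM (-0.27, SE 0.0930, adjusted p = 0.0200). Its call was lost without unstimulated untreated replicate 2 (adjusted p = 0.0601), without stimulated untreated replicate 4 (0.0554), in the fit of all 16 samples (0.0594) and with DESeq2 (0.0553). *Cxcr5* did not pass (-0.26, SE 0.230, adjusted p = 0.340), at 1.70 ± 0.471 and 1.43 ± 0.151 CPM. In all, 6 of the 7 receptors tested were called, 2 higher and 4 lower, against 66.5% of 14205 genes (31.7% higher and 34.8% lower), and 5 were DEGs, against 23.2%. Groups did not overlap for 6 of 7, against 61.6%.

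In cells that had received PGE2, *Ccr8* and *Ccr4* again rose with beads and *Cxcr3*, *Cxcr4* and *Ccr2* fell. *Ccr8* stood at 0.647, 0.744, 0.949 and 1.55 CPM without and 10.7, 11.2, 13.1 and 13.6 CPM with beads, a 12.5-fold rise (3.64, SE 0.243, adjusted p = 1.43e-06), and *Ccr4* rose 1.94-fold (0.95, SE 0.156, adjusted p = 0.000300). *Cxcr3* fell 2.65-fold (-1.41, SE 0.148, adjusted p = 1.38e-05), *Ccr2* 2.26-fold (-1.17, SE 0.163, adjusted p = 9.30e-05) and *Cxcr4* 2.08-fold (-1.06, SE 0.219, adjusted p = 0.00146). *Cxcr6* (-0.25, SE 0.138, adjusted p = 0.133) and *Cxcr5* (-0.19, SE 0.288, adjusted p = 0.576) did not pass. *Cxcr6* did pass without unstimulated PGE2 replicate 1 (-0.42, adjusted p = 0.00179), the library with its lowest level of that group, 45.0 CPM. *Ccr9*, the gut-homing receptor, had 11 to 26 reads a sample without and 1 to 7 reads with beads, and so passed the filter on low counts only through the group in which it was higher. Its value (-1.32, SE 0.493, adjusted p = 0.0363) is therefore a description and no evidence of a change, and it lost the call without unstimulated PGE2 replicate 1 (adjusted p = 0.0530), 2 (0.0576) or 4 (0.104), or stimulated PGE2 replicate 1 (0.0624) or 3 (0.0680). Of the 7 receptors other than *Ccr9*, 5 were called, 2 higher and 3 lower, against 64.2% of 14507 genes (32.5% higher and 31.7% lower), 4 were DEGs, against 22.1%, and 5 had groups that did not overlap, against 60.2%. With PGE2 the CD4+ T cell list summed to 29.0 to 40.6 CPM without and at most 27.6 CPM with beads. Its member *Cd40lg* went the other way, at 0.351 to 0.611 and 1.07 to 3.60 CPM. The NK cell list summed to 5.91 to 11.8 and 37.3 to 128 CPM, and the part of both lists was not tested here either. The 4 comparisons share samples in pairs, so the values for stimulation with and without PGE2 and those for PGE2 are not independent of one another.

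**Figure D5:**
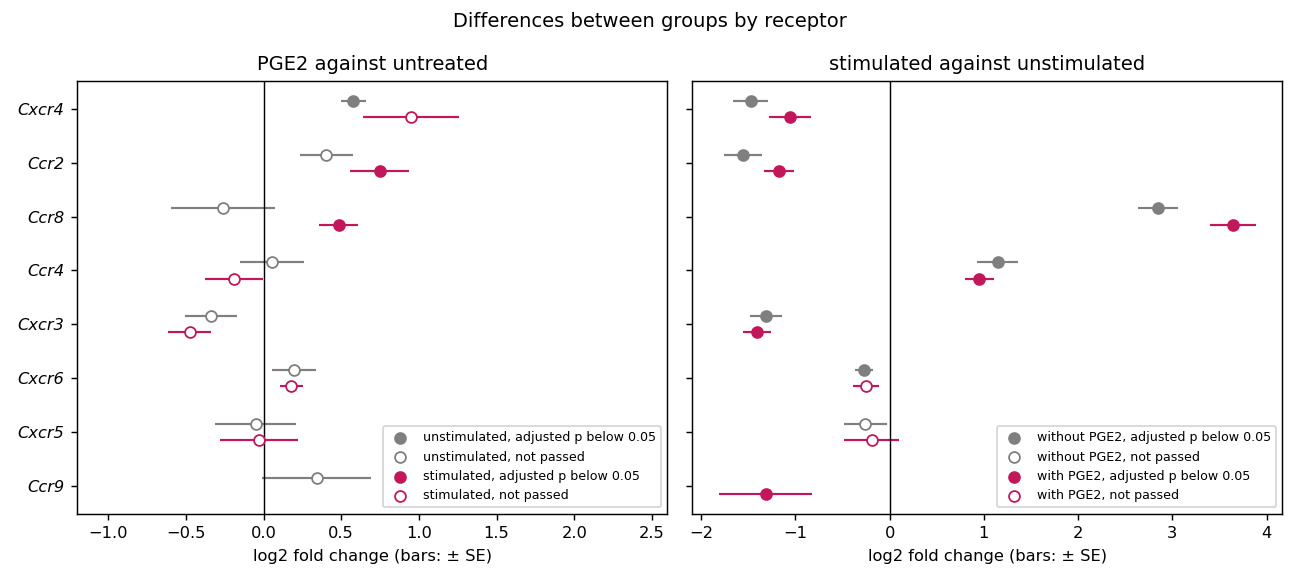
log2 fold change (x axis, bars ± SE of edgeR) of each receptor gene by PGE2 (left) and by stimulation (right), with filled symbols for an adjusted p below 0.05 and open ones for those that did not pass. By PGE2 the values lie between -0.47 for *Cxcr3* and 0.95 for *Cxcr4*, both in stimulated cells, and by stimulation between -1.56 for *Ccr2* and 3.64 for *Ccr8*. *Ccr9* was not tested in stimulated cells or for stimulation without PGE2, and for stimulation with PGE2 it passed the filter only through its higher group.

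Among 15 other chemokine receptor genes, 4 passed the filter in unstimulated cells and 6 in stimulated cells, and the lymph node homing receptor gene *Ccr7* was called by PGE2 in both (1 of 4 and 1 of 6, higher, beside 28.4% and 9.84% of all genes called in either direction). It rose by 0.63 (SE 0.0540, adjusted p = 1.42e-05), from 1083 ± 22.6 to 1651 ± 22.8 CPM, in unstimulated and by 1.41 (SE 0.183, adjusted p = 0.00153), from 467 ± 105 to 1237 ± 254 CPM, in stimulated cells. By stimulation 3 of these genes were called as higher and 1, *Ccr7*, as lower, both without PGE2 (of 4 tested, 66.5% of all genes being called) and with it (of 6, 64.2%). *Ccr7* differed by -1.23 (SE 0.124) without and by -0.41 (SE 0.117) with PGE2, and *Xcr1*, the receptor of XCL1, rose by 1.42 (SE 0.221) and 1.03 (SE 0.268). The atypical receptor gene *Ccrl2* rose by 0.87 (SE 0.289) and 1.00 (SE 0.281).

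Of 14 ligand genes of these receptors, 4 passed the filter in each comparison. *Ccl1*, whose product binds CCR8, was the ligand that moved most. It was at 1.42 ± 0.717 CPM in unstimulated untreated, 0.101 ± 0.0692 CPM in unstimulated PGE2, 27.8 ± 7.52 CPM in stimulated untreated and 2.79 ± 1.76 CPM in stimulated PGE2 samples. In stimulated cells it was the 1 of 4 called by PGE2, beside 9.84% of all genes. Its difference there was -3.31 (SE 0.396, adjusted p = 0.000958), while its receptor gene *Ccr8* rose. Stimulation moved *Ccl1* by 4.26 (SE 0.294) without and 4.68 (SE 0.646) with PGE2. In unstimulated cells 1 of 4 was also called as lower, the same *Ccl1*, beside 28.4% of all genes called in either direction. In unstimulated cells and for stimulation with PGE2, *Ccl1* was near 0 in the lower group and passed the filter through the other, so these values are descriptions. The CXCR3 ligand gene *Cxcl10* rose with beads by 3.48 (SE 0.368) without and 3.09 (SE 0.416) with PGE2, as *Cxcr3* itself fell. In all, 3 of 4 ligand genes were called as higher by stimulation without PGE2, beside 66.5% of all genes called. With PGE2 it was 2 of 4, beside 64.2%, but 1 of these was *Ccl1*, so that count is a description as well.

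Of 36 genes that carry or dampen chemokine receptor signals, 35 were tested in each comparison. PGE2 in unstimulated cells called 5 as higher and 6 as lower (median log2 difference -0.05, all genes -0.00), 31.4% of the 35 beside 28.4% of all genes, a like share. The G protein dampener *Rgs2* rose by 1.89 (SE 0.241, adjusted p = 0.000180) and the arrestin gene *Arrb1* by 0.74 (SE 0.122), and *Rasgrp2*, an activator of the integrin switch Rap1, fell by 0.62 (SE 0.143). In stimulated cells PGE2 called 1 as higher and 6 as lower, which is 7 of 35 beside 9.84% of all genes. The higher one was the phosphoinositide 3-kinase subunit *Pik3r5* (0.57, SE 0.0827), also called in unstimulated cells (0.27, SE 0.0634). Among the lower ones were *Rasgrp2* (-0.48, SE 0.0764) and *Rgs3* (-0.44, SE 0.0945). Stimulation called 8 as higher and 20 as lower without PGE2, and 8 and 17 with it, 28 and 25 of 35 beside 66.5% and 64.2% of all genes. *Rgs16* rose by 4.60 (SE 0.294) and 4.04 (SE 0.347), *Rgs1* by 2.51 (SE 0.130) and 2.06 (SE 0.211), and *Rgs2* by 2.27 (SE 0.214) and 0.63 (SE 0.131). The Rac activator *Prex1* fell in both (-1.37, SE 0.111, without and -1.51, SE 0.117, with PGE2). *Rgs2* was also the 1 of 35 with a called interaction (-1.67, SE 0.267, adjusted p = 0.00624), beside 0.749% of all genes.

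All 13 genes of a list of T cell transcription factors were tested. PGE2 called 2 as higher and 3 as lower in unstimulated cells and 3 and 3 in stimulated cells, 38.5% and 46.2% of the 13 beside 28.4% and 9.84% of all genes. *Eomes*, a T-box factor, fell by 1.13 (SE 0.242) in unstimulated cells, *Id3* fell by 1.08 (SE 0.160) and 1.37 (SE 0.131), and *Bcl6*, of follicular T cells, rose by 0.47 (SE 0.0938) in unstimulated cells. *Hif1a*, the hypoxia factor known to act on *Cxcr4*, rose by 0.45 (SE 0.0776) in unstimulated and 0.90 (SE 0.0959) in stimulated cells. *Klf2*, of cell trafficking and quiescence, rose by 0.90 (SE 0.0954) in stimulated cells. Stimulation called 5 as higher and 6 as lower without PGE2, and 5 and 5 with it, 84.6% and 76.9% beside 66.5% and 64.2% of all genes. *Klf2* fell by 2.63 (SE 0.129) without and fell by 1.78 (SE 0.111) with PGE2. *Tcf7* also fell in both (-1.94, SE 0.123, and -1.53, SE 0.147), and *Eomes* rose by 2.97 (SE 0.200) and 3.33 (SE 0.394). *Hif1a* rose with beads too, by 0.39 (SE 0.0822) without and 0.88 (SE 0.0985) with PGE2, while *Cxcr4* fell in both. *Tbx21*, the T-box factor known to act on *Cxcr3*, rose by 1.81 (SE 0.142) without and 2.14 (SE 0.265) with PGE2, while *Cxcr3* fell in both. By PGE2, *Tbx21* was called as lower in unstimulated cells (-0.41, SE 0.0768) and did not pass in stimulated cells (-0.12, SE 0.274). The part of *Hif1a* in the *Cxcr4* values and of *Tbx21* in the *Cxcr3* values was not tested. *Klf2* was the 1 of 13 with a called interaction (0.83, SE 0.178, adjusted p = 0.0391), beside 0.749% of all genes.

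Profiles over the 16 samples were compared by the root mean square difference of centred log2 CPM among 12253 genes whose mean reached 1 CPM, which left out *Ccr9*. The nearest gene to *Cxcr4* was *Hip1r* (0.151), with means of 232, 385, 81.7 and 155 CPM in unstimulated untreated, unstimulated PGE2, stimulated untreated and stimulated PGE2 cells. The nearest to *Cxcr3* was *Arl4c* (0.125), at 278, 235, 111 and 78.9 CPM, and the nearest to *Ccr2* was *Gm14029* (0.185), at 10.4, 12.8, 3.53 and 5.31 CPM. *Hemk1* was nearest to *Ccr4* (0.190), *Oas1b* to *Cxcr6* (0.126) and *B230217O12Rik* to *Cxcr5* (0.231), whose own profile varied by only 0.344 around its mean. *Ccr8* varied by 1.66, and its nearest gene, *Gm47050*, was 0.276 away, at 0.288, 0.250, 2.92 and 3.42 CPM.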

How the data were processed

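RNA-seq was analysed from 16 samples of TCF1+CD8+ T cells, 4 in each group. The authors prepared poly(A)-enriched libraries, aligned reads to GRCm38 with HISAT2 2.0.5 and deposited whole-number counts per gene made with featureCounts 1.5.0-p3, without normalization. The deposited FPKM values are, per the study's methods, those counts scaled by gene length and sequencing depth. The annotation release and whether counting used strand are not given in the sources used here. The authors tested differential expression with DESeq2 1.20.0.

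From the deposited counts, edgeR 4.0.16 (R 4.3.3) was run on the 8 samples of each comparison with filterByExpr (minimum count 10), TMM factors and its quasi-likelihood test (glmQLFit, glmQLFTest). Tests were two-sided, with p-values adjusted by Benjamini-Hochberg over all genes tested. The interaction used 16 samples. A call needed an adjusted p below 0.05, and a DEG a fold change of at least 2 as well (1 on the log2 scale for the interaction). CPM values carry TMM factors of all 16 samples. The 22678254 to 42950763 reads counted per sample limit precision only for genes with few reads. The scripts were tested on simulated data. Alternatives were DESeq2 1.42.0, RLE and upper-quartile factors, no filter, limma 3.58.1 on log2(FPKM + 1) and log2(FPKM + 0.1), a replicate block, 1 fit of all samples, levels as TMM-scaled CPM per kilobase, and each sample left out in turn. A block with each same-numbered pair left out was added after the data were seen.

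Replicate numbers come from the sample titles, which do not say what a number shares. They were taken to pair samples where the deviations from the group means correlated above 0.1 in every same-numbered pair, which held for both PGE2 comparisons (0.190 to 0.423 in stimulated and 0.137 to 0.444 in unstimulated cells) and for stimulation without PGE2 (0.112 to 0.359), and not for stimulation with PGE2 (0.0439 to 0.281). For PGE2 in stimulated cells, samples of different numbers reached 0.250, above the lowest same-numbered value. In that comparison 6 of 8 samples correlated best with their own number. For PGE2 in unstimulated cells and for stimulation without PGE2 it was 8 of 8.

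The 8 receptor genes, the pathway and marker lists and the tests were chosen with earlier results of these data known. Named genes are the 8 receptors, from each list at most 3 called genes per comparison with the largest difference and a mean of at least 1 CPM, the gene nearest in profile to each receptor, and genes that share sequence with a receptor. Marker genes, *Fyco1*, and *Ccl1* in unstimulated cells were named outside this rule after their values were seen. Values of some named genes in a comparison where the rule did not pick them were also added in that way.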

Additional observations from a re-analysis of the deposited data

Results flagged for a closer look

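In 32 sets of 4 samples (8 genes in 4 groups), 3 held a sample whose gap to the nearest other sample exceeded Dixon's 95% critical share of the group's range, which chance alone exceeds in about 1 in 20 groups. *Cxcr5* was at 0.993 CPM in unstimulated PGE2 replicate 4, below the 1.79 to 1.87 CPM of the other samples of its group, on 39 reads. *Cxcr5* was at 1.66 CPM in stimulated untreated replicate 3, above the other samples at 1.35 to 1.36 CPM, on 41 reads. *Ccr8* was at 1.84 CPM in unstimulated untreated replicate 4, above the others, of which the lowest was at 0.899 CPM, on 61 reads. The unstimulated PGE2 sample of replicate 4 was also the highest of its group for *Ccr8*, at 1.55 CPM.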

How the results depend on the processing

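Counts of receptors past the adjusted p changed most for PGE2. In unstimulated cells the count was 1, with 3 under the replicate block, 0 in the fit of all 16 samples, 1 to 2 when 1 library was left out, and 3 to 4 when a pair was left out of the block. In stimulated cells it was 2, with 5 under the block, 4 with no filter, 1 with limma on either FPKM scale, 0 to 3 without 1 library and 4 to 5 with a pair left out of the block, where *Ccr2* was lost without replicate 3 (0.64, adjusted p = 0.0593). DEGs numbered 0 to 1 there without 1 library. For stimulation with PGE2 the 5 DEGs, *Ccr9* among them, became 3 with limma on log2(FPKM + 1) and 3 to 6 without 1 library. With limma on that scale, DEGs over all genes numbered 108 against 490 and 61 against 243 for PGE2 in unstimulated and stimulated cells, and 1579 against 3301 and 1580 against 3210 for stimulation without and with it. Over all genes, the block raised calls by PGE2 from 4122 to 6938 in unstimulated and from 1370 to 5544 in stimulated cells, and for the interaction from 113 to 408. DESeq2 called 2064 and the fit of all 16 samples 2161 genes by PGE2 in stimulated cells, and DESeq2 called 237 and limma 54 and 51 interactions. The cause of these changes was not tested.

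Directions turned for receptors that did not pass. By PGE2 in unstimulated cells, leaving out 1 library gave -0.18 to 0.13 for *Cxcr5*, -0.11 to 0.27 for *Ccr4* and -0.60 to 0.038 for *Ccr8*, and leaving a pair out of the block gave -0.17 to 0.054 with another value of 0.016 for *Cxcr5* and -0.056 to 0.24 for *Ccr4*. In stimulated cells *Cxcr5* spanned -0.19 to 0.11 without 1 library, and with a pair left out of the block *Cxcr5* reached 0.086 and 0.033 and *Ccr4* 0.043. For the interaction, *Cxcr6* was at 0.0038 under the block, 0.000889 and 0.00275 with limma on log2(FPKM + 1) and log2(FPKM + 0.1), and -0.13 to 0.10 without 1 library. *Cxcr5* was at -0.00168 and -0.030 with limma and -0.15 to 0.19 without 1 library, and *Ccr9* at -0.41 to 0.45. Both stimulation comparisons kept every direction in the alternatives run, with 4 of 112 and 8 of 128 receptor values losing and 0 and 2 gaining a call. Upper-quartile factors moved the median of all genes to -0.13 in both of these, from -0.03 and 0.00, and *Cxcr6* then passed with PGE2 (-0.38, adjusted p = 0.0387). In stimulation with PGE2, 5 of 8 samples correlated best with their own number. The same-numbered correlations there (0.0439 to 0.281) missed the rule for pairing, which does not show that these samples were unpaired. The block left 6 receptors called and 5 DEGs in that comparison, both with *Ccr9*. For the interaction it left 0. For stimulation without PGE2 the block changed no receptor call either, while the calls it added by PGE2 are given above. Of 160 receptor levels, 159 stayed within 1 SD under the alternatives. Few reads limit *Ccr9*, *Cxcr5* and, without beads, *Ccr8*.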
